A study of Mus musculus with 3 samples.

Results

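Sfrp1, Bmp7, Igfbp2 and Igfbp4 encode secreted proteins of 3 signalling pathways, and were followed here in sorted cells of the embryonic mouse kidney. The features of the array whose platform gene symbol is one of these names were taken: 2 oligonucleotides for Sfrp1 and 1 each for Bmp7, Igfbp2 and Igfbp4. All 5 had a value on all 3 arrays, and the 4 genes were set among the 3915 genes with values on all 3. The arrays compared GFP+ with GFP- cells, separated by fluorescence-activated sorting from kidneys of HoxB7-GFP transgenic mice at 15.5 days post coitum (dpc), with both sexes pooled. In these mice GFP is driven by HoxB7 and marks the ureteric tree, the branching epithelium that becomes the collecting ducts, so the GFP- fraction is every other cell of the same transgenic kidney. Each array held GFP+ RNA in one channel and GFP- RNA in the other, with no dye swap and no common reference, and gave 1 normalised log2 ratio per oligonucleotide. The ratio is given as GFP+ over GFP-, a likely direction that rests on the titles and the channel order, since the dyes are not stated in the sources used here. In that direction all 6 measured markers of ureteric epithelium were positive and all 7 of macrophages and leukocytes negative on all 3 arrays. The listed macrophage gene Lyz2, with a value on array 3 alone, was positive there (0.31). In the opposite direction every sign and share would turn.

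Sfrp1 is a secreted Wnt antagonist: its cysteine-rich domain resembles that of the Frizzled receptors, and it binds Wnt ligands outside the cell. Bmp7 is a ligand of the BMP branch of the TGF-beta family, made in mouse kidney by both the ureteric epithelium and the cap mesenchyme and needed to keep the nephron progenitors of the cap alive. Igfbp2 and Igfbp4 bind insulin-like growth factors in extracellular fluid and control how much of them reaches the IGF receptor, and Igfbp4 is cut by the protease Pappa, which frees its ligand. Because these proteins leave the cell, a transcript ratio bears on which fraction held the mRNA, not on where the protein acts.

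The 4 genes divided into a pair with more signal in GFP+ cells, Bmp7 and Igfbp2, and a pair with more in GFP- cells, Igfbp4 and Sfrp1. Sfrp1 was 2.67-fold lower in GFP+ cells and was the only one of the 4 to pass the test over all genes. Bmp7 was measured at 1.64-fold in the GFP+ direction, Igfbp2 at 1.46-fold in the same direction and Igfbp4 at 1.49-fold in the GFP- direction, and none of these 3 passed. A gene was called when the adjusted p of limma, a linear model that shares variance between genes, was below 0.05. Of the 3915 genes, 2.78% were called in either direction, 1.38% higher and 1.4% lower in GFP+ cells.

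The arrays gave values for between 4980 and 6187 gene features each, and their number limits the precision. Array 1 stood apart from the others. Across the 3915 genes, which are not independent replicates, its ratios correlated with arrays 2 and 3 at r = 0.08 and 0.28, whereas arrays 2 and 3 correlated with each other at r = 0.88. Without array 1, 46.4% of genes were called in place of 2.78%, so a call made in that setting alone says little about a gene. Whether each array had its own pool of embryos is not stated, so p-values cover array-to-array spread alone, and that spread may be technical. In sorted pools, fewer cells of a type and less RNA per cell cannot be told apart.

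Sfrp1, the Wnt antagonist, had log2 ratios of -1.57, -1.27 and -1.41 on arrays 1, 2 and 3 as the mean of its 2 oligonucleotides. All 3 lay far on the GFP- side, with array 1 the lowest. The mean was -1.42 ± 0.15 (SD, n = 3 arrays), with a 95% interval from -1.80 to -1.03, which corresponds to 2.04-fold to 3.49-fold lower in GFP+ cells (limma adjusted p = 0.0105). It ranked 35 from the lowest of 3915 genes, and 0.868% of genes had a lower mean. The share of genes below it was 0.843%, 3.58% and 0.868% on arrays 1, 2 and 3.

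The 2 Sfrp1 oligonucleotides gave similar means and unequal spreads. The first had log2 ratios of -1.74, -1.03 and -1.37 on arrays 1, 2 and 3, a mean of -1.38 ± 0.35 (SD, n = 3 arrays). The second had -1.40, -1.51 and -1.45, a mean of -1.46 ± 0.06 (SD, n = 3 arrays). Thus the second hardly varied between arrays, while the first was lowest on array 1 and highest on array 2. Their difference, first minus second, was -0.34, 0.48 and 0.08 on the 3 arrays, with a mean of 0.07 ± 0.41 (SD, n = 3 arrays) that lay within its spread. Each was called by itself when the 4399 features with values on all 3 arrays were tested one by one, with limma adjusted p = 0.0226 for the first and 0.00848 for the second.

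Bmp7, the BMP ligand, had log2 ratios of 0.40, 0.79 and 0.94 on arrays 1, 2 and 3. All were positive, and the ratio on array 1 was the smallest. The mean was 0.71 ± 0.28 (SD, n = 3 arrays), with a 95% interval from 0.28 to 1.14, or 1.21-fold to 2.20-fold in the GFP+ direction, and it was not called (limma adjusted p = 0.135). It ranked 107 from the highest of 3915 genes. On array 1, 20.3% of genes had a higher ratio than Bmp7, against 4.01% on array 2 and 1.69% on array 3. Without array 1 its mean was 0.86 and it was called (limma adjusted p = 0.00301), in the setting where 46.4% of all genes were.

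Igfbp2, one of the pair of IGF-binding proteins, had log2 ratios of 0.78, 0.43 and 0.44 on arrays 1, 2 and 3. Here array 1 gave the largest ratio and the other arrays nearly the same value. The mean was 0.55 ± 0.20 (SD, n = 3 arrays), with a 95% interval from 0.15 to 0.95, or 1.11-fold to 1.93-fold in the GFP+ direction, and it was not called (limma adjusted p = 0.203). It ranked 200 from the highest. The share of genes above it was 7.23%, 20.9% and 12.9% on arrays 1, 2 and 3. Without array 1 its mean was 0.43 (limma adjusted p = 0.0156), a call that again stood beside 46.4% of all genes.

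Igfbp4 had log2 ratios of -0.30, -0.76 and -0.66 on arrays 1, 2 and 3. All were negative, with array 1 nearest to 0. The mean was -0.57 ± 0.24 (SD, n = 3 arrays), with a 95% interval from -0.99 to -0.16, or 1.11-fold to 1.99-fold in the GFP- direction, and it was not called (limma adjusted p = 0.203). It ranked 215 from the lowest of 3915 genes. On array 1, 26.9% of genes had a lower ratio than Igfbp4, against 9.43% on array 2 and 6.39% on array 3. Without array 1 its mean was -0.71 (limma adjusted p = 0.0044), with the same 46.4% of genes called.

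**Figure D1:**
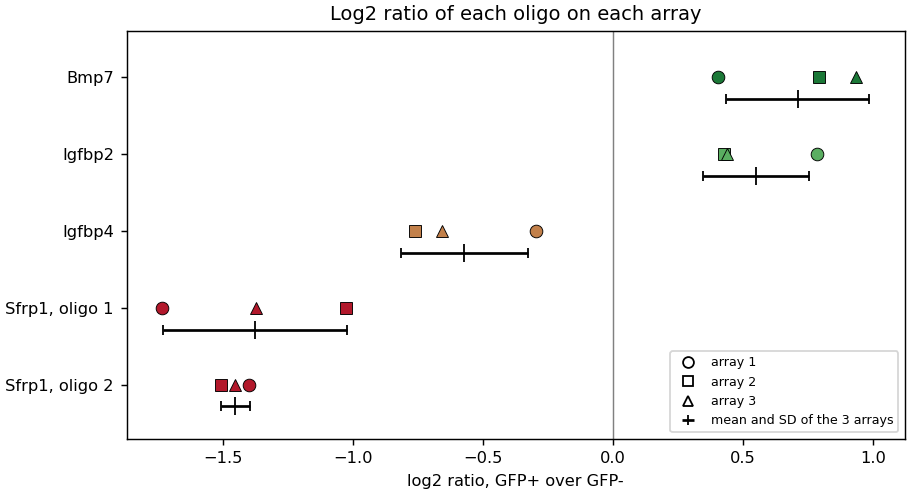
Log2 ratio of GFP+ over GFP- (horizontal axis) for each oligonucleotide of the 4 genes, with a point per array and, below the points, the mean and SD of the 3 arrays. Bmp7 and Igfbp2 lie to the right of 0 on every array, Igfbp4 and both Sfrp1 oligonucleotides to the left.

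Each of the 4 genes kept 1 sign on all 3 arrays, as did 35.9% of the 3915 genes: 20.7% were positive on all 3, like Bmp7 and Igfbp2, and 15.3% negative on all 3, like Igfbp4 and Sfrp1. Intervals of single genes that exclude 0 therefore stand beside adjusted p-values that miss the threshold, since the adjustment runs over all genes. An exact sign-flip permutation test of 1 gene over 3 arrays could not reach the threshold: its smallest two-sided p is 0.25.

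In order of mean ratio the genes ran Bmp7, Igfbp2, Igfbp4 and Sfrp1. Bmp7 and Igfbp2 did not differ beyond their spread: the ratio of Bmp7 minus that of Igfbp2 was -0.38, 0.36 and 0.50 on the 3 arrays, a mean of 0.16 ± 0.47 (SD, n = 3 arrays), and their order turned on array 1. Between Igfbp2 and Igfbp4 the difference in log2 ratio was 1.08, 1.19 and 1.10, a mean of 1.12 ± 0.06 (SD, n = 3 arrays). These IGF-binding proteins lay on opposite sides of 0 on every array. The gap between them was nearly constant, while the distance of each from 0 varied. Igfbp4 exceeded Sfrp1 by 1.27, 0.51 and 0.75, a mean of 0.84 ± 0.39 (SD, n = 3 arrays), with the same order on all 3 arrays.

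**Figure D2:**
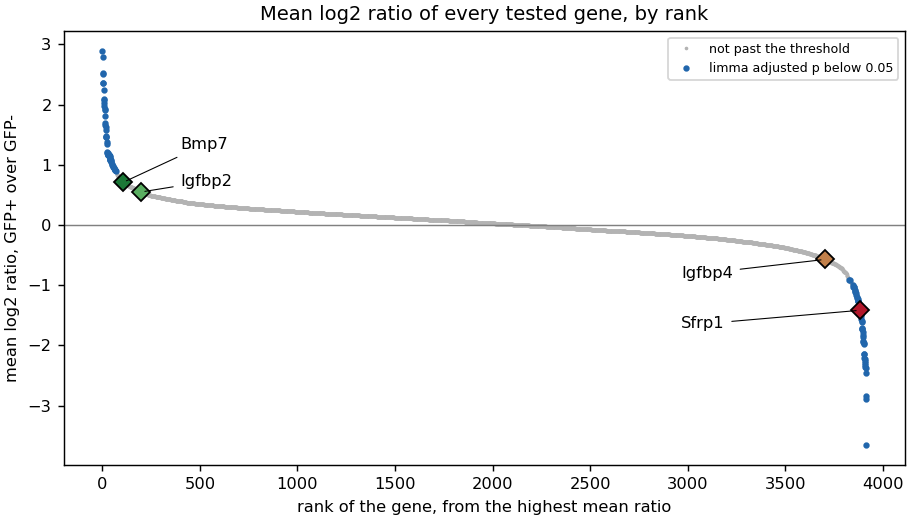
Mean log2 ratio of GFP+ over GFP- (vertical axis) of the 3915 tested genes in order of rank (horizontal axis), with called genes in blue and the 4 genes as diamonds. Sfrp1 lies among the called genes at the lower end, while Bmp7 (rank 107), Igfbp2 (rank 200) and Igfbp4 (rank 215 from the lowest) lie nearer to 0 than any called gene, whose smallest absolute mean was 0.89.

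A ratio can also be read as the part of both channels' normalised signal that came from GFP+ cells, which treats the channels as equal in total and lies between the extremes for any ratio. For the mean ratio of Sfrp1 that part was 27.2%, with 25.2%, 29.3% and 27.3% on arrays 1, 2 and 3, and 72.8% of its signal was in the GFP- channel. The GFP+ part was 62.1% for Bmp7, 59.4% for Igfbp2 and 40.2% for Igfbp4, and the GFP- part 37.9%, 40.6% and 59.8%. For comparison, the GFP+ part was 83.6% for the ureteric transcription factor Gata3 and 7.35% for the leukocyte protein S100a9. Signal over background is unknown here and the control channel had a floor, so the smaller part is not shown to be transcript.

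Markers of the cell types in each fraction place these ratios. The 6 measured ureteric epithelium genes of 20 listed were all positive on all 3 arrays, with means from 0.58 to 2.37 and 5 of them called, led by the tight junction protein Cldn7 (2.37 ± 0.27) and Gata3 (2.35 ± 0.39). The mean of Bmp7 (0.71) exceeded only that of Gata2 (0.58) among these 6, and Igfbp2 (0.55) lay below all 6. Of 4 measured stromal genes of 15, all were negative on all 3 arrays, with means from -2.46 to -0.96 and 3 called; Mgp, an inhibitor of calcification, had -2.46 ± 0.62 and the proteoglycan Dcn -1.61 ± 0.26. Of 6 cap mesenchyme genes of 12, 5 were negative on all 3 arrays and 3 were called lower, among them Crym (-1.72 ± 0.59) and the transcription factor Wt1 (-1.42 ± 0.37). Sfrp1, at -1.42, lay inside the range of both the stromal and the cap mesenchyme lists.

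The GFP- fraction also held other cells. All 7 measured macrophage and leukocyte genes of 12 were negative on all 3 arrays, with means from -3.66 to -1.28 and 6 called, led by S100a9 (-3.66 ± 0.44) and Cd52 (-2.84 ± 0.28). Of that list, Lyz2 had 0.31, Cd68 -1.69 and Ptprc -0.89, each on array 3 alone. Of 3 erythroid genes of 8, Hba-x (-2.22 ± 0.38) and Alas2 (-2.15 ± 0.07) were called lower. The podocyte list had 2 measured genes of 8, Tcf21, called at -1.94 ± 0.35, and Podxl at 0.02 ± 0.31. How far either is confined to podocytes was not tested. None of 7 endothelial genes of 10 was called, with Ramp2 at -0.96 ± 0.94 and Emcn at -0.48 ± 0.37; likewise none of 3 early nephron genes of 10, with Hey1 at -0.56 ± 0.10 and Irx1 at 0.40 ± 0.41, nor Tubb3 (-0.18 ± 0.52), the measured nerve gene. The endothelial adhesion proteins Cdh5 (-2.08 and -1.28 on arrays 2 and 3) and Pecam1 (-1.46 on array 3 alone) were not among the 3915 genes of the main test. Both were picked for naming with their values in view. The 7 tested endothelial means ran from -0.96 to -0.17 but include array 1, on which Cdh5 and Pecam1 had no value. Ramp2, the lowest of those means, had -1.69 and -1.29 on arrays 2 and 3 and 0.10 on array 1. Igfbp4, at -0.57, lay inside the range of those 7 means and just below Hey1 (-0.56) of the early nephron list. It lay above every stromal and every macrophage and leukocyte mean. The cap mesenchyme, podocyte and erythroid ranges also spanned it, with wide gaps around it. Cap mesenchyme means were -0.98 or lower apart from Osr1 (0.17), and erythroid means were -2.22, -2.15 and -0.33 (Hba-a1). Sfrp1 lay below the 7 tested endothelial and the 3 early nephron means, although Ramp2 was below Sfrp1 on array 2 (-1.69 against -1.27). On array 3 Sfrp1 had -1.41, close to Pecam1 and Cdh5. Its mean lay inside the range of the macrophage and leukocyte means. The podocyte and erythroid ranges spanned it too, between Tcf21 (-1.94) and Podxl (0.02) and between Alas2 (-2.15) and Hba-a1 (-0.33). The ratio alone cannot tell which of these GFP- cell types held Sfrp1 or Igfbp4, and the part of each cell type in their ratios was not tested.

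**Figure D3:**
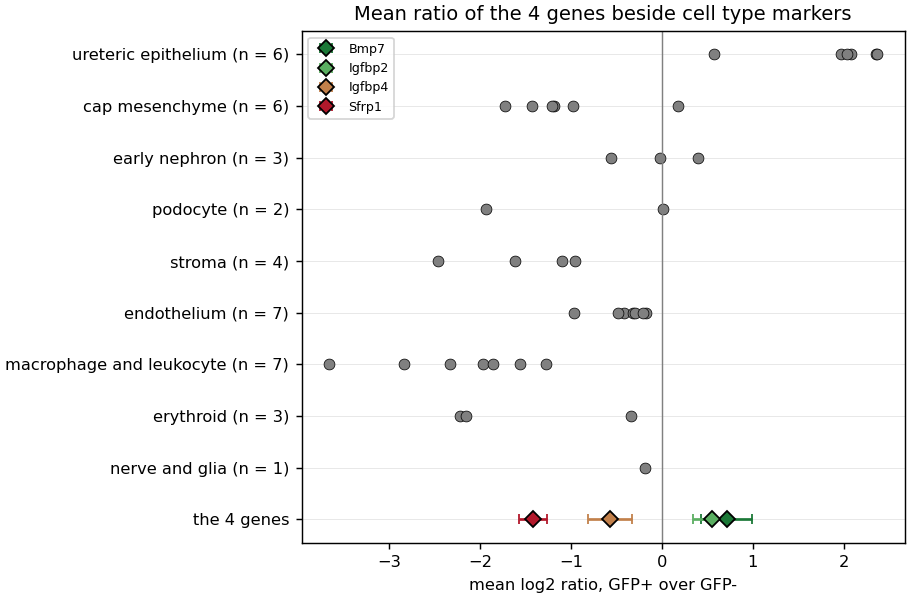
Mean log2 ratio of GFP+ over GFP- (horizontal axis) of each measured marker gene, 1 point per gene in a row per cell type, with the 4 genes in the lowest row (diamonds, mean and SD over 3 arrays). Sfrp1 lies within the stromal and cap mesenchyme points, and Bmp7 and Igfbp2 lie near Gata2, left of the other ureteric epithelium points.

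The other genes of the 3 pathways were taken from lists of 222 names in all, of which 197 were on the array, 47 had values on all 3 arrays, 28 on 1 or 2 and 122 on none. Of the 47, 4 were called, all lower in GFP+ cells (Sfrp1, Apcdd1, Dcn and Tgfbi), beside 1.4% of all genes. The median of the 47 means was -0.05 against 0.03 over all 3915 genes, and 20 were above 0. Most ligands had no value, so the account of each pathway covers a small part of it.

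Among Wnt genes, 17 of 96 listed names were measured on all 3 arrays. Of these, 2 were called lower and none higher, beside 1.4% and 1.38% of all genes. Sfrp1 was the single measured antagonist of 14. Sfrp2, its relative, had values of opposite sign on 2 arrays, 0.75 on array 1 and -1.05 on array 3, and Sostdc1, a secreted antagonist of Wnt and BMP signals, had 0.96 on array 3 alone. Sostdc1 was not tested. Sfrp2 was tested only when genes with at least 2 values were admitted, and was not called (mean -0.15, limma adjusted p = 0.905). Their sides cannot be set beside that of Sfrp1 with these values.

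Of the Wnt ligands and agonists, Wnt4, a signal for nephron formation, had -0.41, 0.14 and 0.07 on arrays 1, 2 and 3, on both sides of 0. The R-spondins Rspo3 and Rspo4 amplify Wnt signals at the receptor. Rspo3 had -1.61, -0.90 and -0.88, all negative, with a mean of -1.13 ± 0.42 (SD, n = 3 arrays) that just missed the threshold (limma adjusted p = 0.0518), while Rspo4 had a mean of 0.03 ± 0.07. Rspo3 was called in 9 of 10 alternative settings, the exception being without array 3 (limma adjusted p = 0.0587). In those 9 the limma adjusted p ran from 2.91e-05 with array weights to 0.04996 when each feature was tested by itself. They include the setting without array 1, where 46.4% of all genes were called, and that with array weights, where 55.4% were. Wnt8b had -0.09 and 0.19 on arrays 1 and 3, and Wnt7b -0.61 on array 2 alone.

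None of the 3 measured Wnt receptors was called. Means of log2 ratio were 0.21 ± 0.26 for the co-receptor Lrp5, -0.29 ± 0.37 for the receptor kinase Ryk and -0.46 ± 0.51 for the Frizzled receptor Fzd7. Fzd3 had 0.16 on array 3 alone. Ror1 had an oligonucleotide with 0.49 on array 1 and -0.35 on array 3 and another with -0.20 on array 3. No receptor was thus placed in either fraction.

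Inside the cell, none of 7 Wnt pathway genes was called, and their means ran from -0.59 to 0.26. Porcn, the enzyme that attaches the lipid needed for Wnt secretion, was positive on all 3 arrays at 0.26 ± 0.04. The transducer Dvl1 had 0.26 ± 0.44, the scaffold Axin1 -0.05 ± 0.53 and the kinases Gsk3b, Csnk1a1 and Csnk1e 0.17 ± 0.45, 0.11 ± 0.24 and -0.59 ± 0.81. The transcription factor Tcf7l1 had -0.55 ± 0.81, with 0.37 on array 1 and negative values on the others.

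Among the 3 measured Wnt targets, Apcdd1 was called lower. Apcdd1 is both a target and a membrane-bound inhibitor of the pathway. Its log2 ratios were -1.20, -1.64 and -1.49 on arrays 1, 2 and 3, with a mean of -1.44 ± 0.23 (SD, n = 3 arrays; limma adjusted p = 0.0125), 2.72-fold lower in GFP+ cells and close to the 2.67-fold of Sfrp1. The transcription factor Lef1 had 0.14 ± 0.22 and the cyclin Ccnd1 0.33 ± 0.09, the latter positive on all 3 arrays, and neither was called.

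Among BMP and TGF-beta genes, 19 of 88 were measured, 2 were called lower and none higher, beside 1.4% and 1.38% of all genes. Bmp7 had the highest mean of the 19. The other measured ligands lay at 0 within their spread, Bmp2 with -0.03 ± 0.19 and Gdf9, an oocyte growth factor, with -0.02 ± 0.50. Bmp4, a ligand of the mesenchyme around the ureter, had 0.26 on array 1 and -0.74 on array 3. Tgfb2 had -0.57 and -0.42 on arrays 2 and 3, Tgfb3 0.006 and -0.18 on arrays 1 and 3, Tgfb1 -0.21 on array 2 and Nodal 0.12 on array 1.

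Dcn, the single called gene among the secreted antagonists and binders of this family, binds TGF-beta in the matrix and also stood in the stromal list. Its log2 ratios were -1.90, -1.52 and -1.41 on arrays 1, 2 and 3, with limma adjusted p = 0.00976. Fstl1 had 0.07 ± 0.06 and the latent TGF-beta binding protein Ltbp3 -0.35 ± 0.38. Bgn, a proteoglycan related to Dcn, had -2.02 and -0.99 on arrays 1 and 2. On single arrays, Chrdl1 had -0.18 and Nbl1 -0.65 on array 3, and Smoc2 0.64 on array 2.

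All 4 measured receptors of the family had negative means and none was called. The type II receptors Acvr2b and Tgfbr2 had -0.32 ± 0.21 and -0.18 ± 0.17, negative on all 3 arrays, and the endothelial co-receptor Eng had -0.09 ± 0.27. The BMP receptor Bmpr2 had 0.46 on array 1 and -1.08 and -1.39 on arrays 2 and 3, so array 1 opposed the others. Acvrl1 had 0.50 and -0.63 on arrays 1 and 3, and Bmpr1b -0.05 on array 3. Of the signal transducers, Smad2 had -0.01 ± 0.20 and the ubiquitin ligase Smurf2 0.12 ± 0.25.

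Targets of the family went both ways. Of 7 measured targets, 3 were positive and 2 negative on all 3 arrays, beside 20.7% and 15.3% of all genes. The 3 positive ones were Id1, Id2 and Id3, inhibitors of basic helix-loop-helix factors and direct targets of BMP signalling. Their mean log2 ratios were 0.42 ± 0.32, 0.68 ± 0.41 and 0.34 ± 0.17, and none was called. The values of Id2 were 1.13, 0.34 and 0.55 on arrays 1, 2 and 3. Tgfbi, a matrix protein induced by TGF-beta, was called lower at -2.30 ± 0.40, with -2.76, -2.04 and -2.11 on the 3 arrays (limma adjusted p = 0.00531). Hey1 was negative on all 3 arrays without a call. The inhibitory Smad6 had 0.06 ± 0.16, and the decoy receptor Bambi -0.56 ± 0.70 with array 1 on the other side of 0.

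In the IGF pathway, 11 of 38 listed genes were measured and none was called by limma, beside 2.78% of all genes; 3 of the 11 had an unadjusted p below 0.05, as did 14.9% of all genes. The ligands Igf1, Igf2 and Ins2 were on the array and had no value on any array. Of 9 binding proteins, 5 were measured, and Igfbp2 and Igfbp4 had the highest and the lowest mean of these 5. Igfbp5 had -0.02, 0.39 and 0.08 on arrays 1, 2 and 3 (mean 0.15 ± 0.21), Igfbp6 -0.42, -0.009 and -0.63 (mean -0.35 ± 0.32) and Igfbp7 0.20, -0.11 and 0.14 (mean 0.08 ± 0.17). Igfbp2 was the one binding protein positive on all 3 arrays, whereas Igfbp4 and Igfbp6 were negative on all 3.

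The receptor Igf1r was negative on all 3 arrays, with -0.25, -0.37 and -0.21 (mean -0.28 ± 0.08). Pappa, the protease that cuts Igfbp4, had -0.13 ± 0.06, also negative on all 3, and the protease Htra1 0.08 ± 0.62. The adaptor Grb10, which restrains signalling from the insulin and IGF receptors, had -0.63, -0.81 and -0.55, a mean of -0.66 ± 0.13 (SD, n = 3 arrays; limma adjusted p = 0.121). Grb2 had -0.12 ± 0.17 and the kinase Pdpk1 0.29 ± 0.30. Irs2, an adaptor of the insulin and IGF receptors, is named after its values were seen: it had 1.33 and 1.28 on arrays 2 and 3 and no value on array 1. It was called when genes with at least 2 values were tested (limma adjusted p = 0.0427), beside 3.08% of the 4744 genes in that setting. The call of Irs2 rests on arrays 2 and 3 alone, which correlated with each other at r = 0.88.

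**Figure D4:**
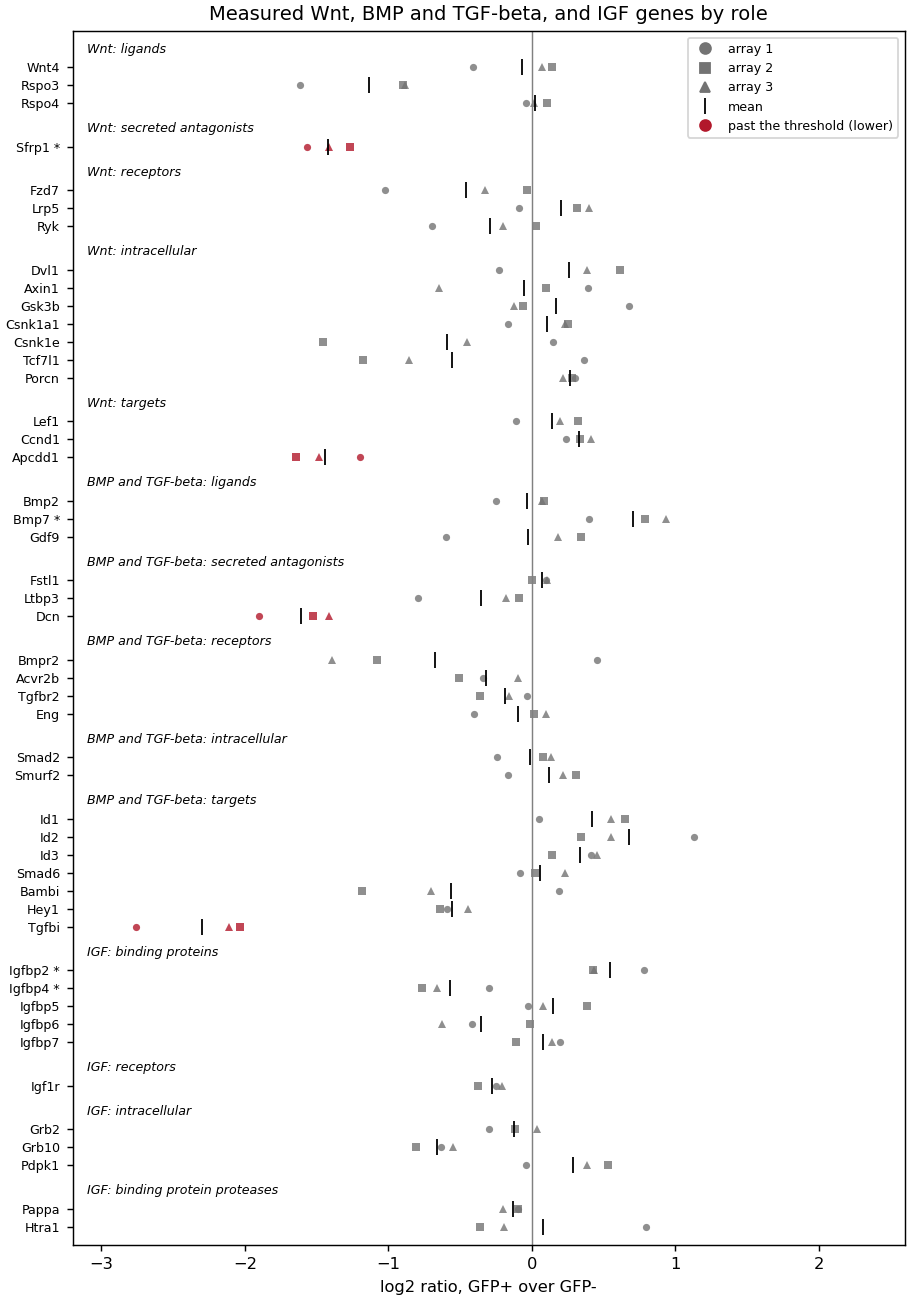
Log2 ratio of GFP+ over GFP- (horizontal axis) on each array for the 47 measured genes of the Wnt, BMP and TGF-beta, and IGF lists, grouped by role, with the mean as a bar and an asterisk beside the 4 genes of the set. The 4 called genes, in red, all lie left of 0, and Bmp7 has the highest mean of all 47.

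The genes most like each of the 4 over the 3 arrays were found by the distance between their 3 log2 ratios. The search covered the 3915 genes apart from those with clone or gene-model names. Nearest to Sfrp1 were the transcription factor Nfia (distance 0.13), Dipk2a (0.27) and the basement membrane protein Nid1 (0.28), all called lower with means of -1.35, -1.27 and -1.52. Nearest to Bmp7 were the lipid transporter Abca3 (0.08), the cytochrome oxidase assembly factor Coa3 (0.09) and the secreted chaperone Clu (0.10). The nearest to Igfbp2 were the G protein subunit Gnb4 (0.05), the liver-type glycogen phosphorylase Pygl (0.13) and the laminin chain Lamb1 (0.13). For Igfbp4 they were the cyclin Ccnd2 (0.09), the translation initiation factor subunit Eif3m (0.10) and Tm4sf1 (0.13). None of these neighbours of Bmp7, Igfbp2 and Igfbp4 was called by limma. With 3 arrays such likeness is a description of 3 values.

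**Figure D5:**
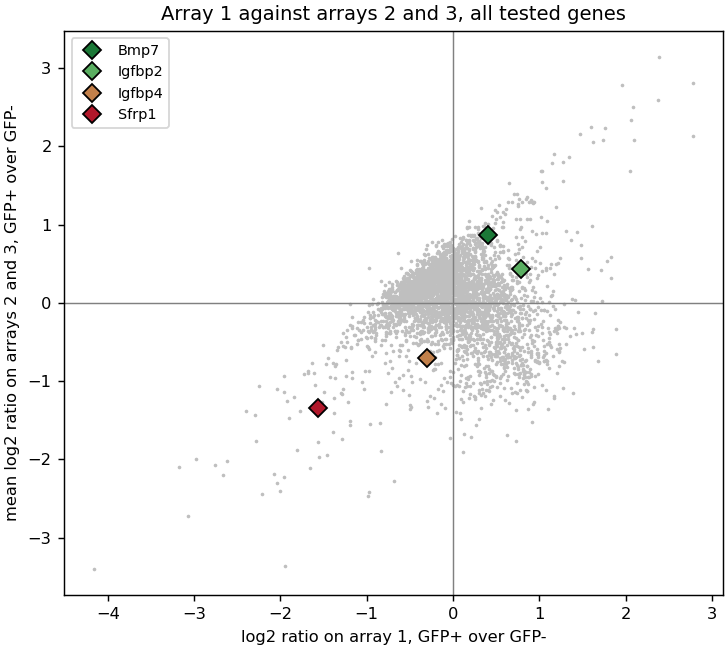
Log2 ratio on array 1 (horizontal axis) against the mean log2 ratio on arrays 2 and 3 (vertical axis), both GFP+ over GFP-, for the 3915 tested genes (grey) and the 4 genes (diamonds). The 4 genes lie in the quadrants where both axes have the same sign, while many grey points lie where array 1 opposes the others.

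On array 1 the ratio of Sfrp1 was -1.57 against -1.34 for the mean of arrays 2 and 3, that of Bmp7 0.40 against 0.86, that of Igfbp2 0.78 against 0.43 and that of Igfbp4 -0.30 against -0.71. So array 1 lay above the others for both IGF-binding proteins and below them for Sfrp1 and Bmp7, without turning the sign of any of the 4. Over all 3915 genes, array 1 and the mean of the others correlated at r = 0.17.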

How the data were processed

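The deposited values are log2 ratios of the 2 channels of each array, 1 array per sample (3 in all, 1 group). Per the labels, images of amplified RNA on Mouse Compugen oligonucleotide arrays were read with Imagene 5.5, the control channel was corrected by a Lowess curve (20% of the points in each fit) and given a floor of 10. The table is described as filtered, by a rule not given in the sources used here; 20.2% of 21819 gene features had values on all 3 arrays. Base 2 was settled from the values: 2 to the power of the value was a whole number of thousandths (within 0.01) for 99.97% of them. The 883 control, blank and other features that name no gene were left out. Symbols came from the platform annotation, updated through gene identifiers to the GRCm38.p6 RefSeq table (15970 of 16656 features with 1 symbol). The genome build behind the array design is not given, so coordinates are left out.

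Using limma 3.58.1 (R 4.3.3), the mean of a gene's features was set against 0 (lmFit, eBayes, two-sided, Benjamini-Hochberg over 3915 genes), after a check on simulated data. Errors are SDs over 3 arrays. Without a dye swap, a gene-specific dye effect and a difference between fractions cannot be told apart. Raw intensities were not used here, so signal over background is unknown. The 4 genes, the pathway and marker lists and the alternatives were chosen with earlier results of these data known. The text names these 4 genes, listed pathway genes with values on all 3 arrays, listed ligands, antagonists, binding proteins and receptors with fewer, the 3 nearest genes of each of the 4, and the 2 markers of largest absolute mean per list. Other named genes were chosen after their values were seen. Alternatives left out each array, changed the normalisation, weighted arrays, averaged arrays 2 and 3, admitted genes with 2 values and tested each feature.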

Additional observations from a re-analysis of the deposited data

How the results depend on the processing

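All 4 genes kept their direction under every alternative run. Each had 1 sign on all 3 arrays, as did 35.9% of all genes. Leaving out, weighting or averaging arrays therefore could not turn it. Sfrp1 passed the threshold in all 11 of its alternatives, with mean log2 ratios from -1.49 to -1.34. Its 2 oligonucleotides, each tested by itself, count among the 11. Bmp7, Igfbp2 and Igfbp4 passed in 2 of 10 alternatives each, without array 1 and with array weights (0.15, 1.55 and 4.30 for arrays 1, 2 and 3); with weights their means were 0.89, 0.44 and -0.68. Leaving out each array gave -1.49 to -1.34 for Sfrp1, 0.60 to 0.86 for Bmp7, 0.43 to 0.61 for Igfbp2 and -0.71 to -0.48 for Igfbp4, with limma adjusted p up to 1.00 for the last 3. Called genes numbered 109 (54 higher, 55 lower), 74 to 1818 when an array was left out (1818 without array 1) and 2170 (55.4% of all genes) with array weights. Pathway genes called were 4, then 4 to 20 without 1 array (20 without array 1) and 29 with weights. The other scalings, averaging arrays 2 and 3, admitting 2 values and testing each feature kept the calls of the 4 genes. Convergence failed for the default array weights, so gene-by-gene weights were used. No paired analysis was possible because the 3 arrays form 1 group and each ratio is already a pair. Filtering on signal could not be varied, since the table holds no intensities.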
